A study of Mus musculus with 75 samples.

Results

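The comparison described here set nuclei sorted from the D1 line against nuclei sorted from the D2 line in mice that received cocaine for the first time, and it rests on 18 of the 75 libraries of the series. D1_SC held 9 libraries and D2_SC held 9 libraries, chosen by their column names, and genes were described across both. All mice were male and carried LSL-eGFP::L10a, a green fluorescent ribosomal protein that appears only after Cre has acted, together with D1-Cre in the D1_SC mice or D2-Cre in the D2_SC mice, so that a nucleus was collected because of the receptor line in which Cre had acted. Both groups were injected with saline on 10 days, spent 30 days in the home cage and were then challenged with 1 dose of cocaine (20 mg/kg, intraperitoneal) 1 h before the nucleus accumbens was punched out. No animal of either group had met cocaine before that hour. The labels do not say whether a library is 1 mouse or a pool, so the p-values below measure the spread between libraries, which may be partly technical.

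Most neurons of the nucleus accumbens are medium spiny neurons, inhibitory projection cells that fall into 2 classes. Cells of the D1 class carry the Drd1 receptor, which raises cAMP when dopamine binds, and make the peptides substance P (from Tac1) and dynorphin (from Pdyn). Cells of the D2 class carry the Drd2 receptor, which lowers cAMP, together with the adenosine receptor Adora2a and the peptide precursor Penk. Cocaine blocks dopamine reuptake, and in the striatum the rapid transcription response to a first dose is best known from D1 cells.

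Total counts ran from 651445 to 25320198 in D1_SC (median 10318334) and from 2040625 to 21805478 in D2_SC (median 16082851). A quality rule that used no marker gene (total count, number of genes with 10 or more counts, and correlation with the other libraries of the line) was failed by 4 of the 9 D1_SC libraries (numbers 1, 4, 5 and 9) and by 3 of the 9 D2_SC libraries (numbers 1, 2 and 3). D1_SC 4 and D2_SC 3 failed on the correlation alone. D2_SC 1 and 2 failed on the total count alone, D1_SC 1 and 9 on total count and correlation, and D1_SC 5 on all 3 measures. Results are therefore given with all libraries and without these 7. The share of counts that would arise if the whole genome carried the count density of olfactory and vomeronasal receptor genes, which brain nuclei should not transcribe, averaged 23.4 ± 17.6% in D1_SC and 33.7 ± 19.6% in D2_SC (SD, n = 9 each; exact permutation test, two-sided p = 0.253, adjusted over 4 library measures 0.675). The lowest background share of each group was in D1_SC 4 and in D2_SC 3, which failed the quality rule. Without the 7 failing libraries the mean share was higher in both groups, so that set is not the one with less background.

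The class difference that stood clear of the spread between libraries lay in Drd2 and in genes beside Drd2 and Drd1. Of 39250 genes tested, 4 had counts per 1000000 of the library total (CPM) that did not overlap between the 9 D1_SC and the 9 D2_SC libraries, a share of 0.0102%. These were Drd2, Ankk1 and Ttc12, all lower in D1_SC (0.00764%), and Sfxn1, higher in D1_SC (0.00255%). Drd2, Ankk1 and Ttc12 are neighbours on chromosome 9, and Sfxn1 lies beside Drd1 on chromosome 13. These 4 genes also made up the whole list that passed when the 18 libraries were fitted alone, and each passed under all 28 alternatives tried (edgeR, DESeq2 or limma with Benjamini-Hochberg adjustment). The flanking genes among them differed between the groups in the same direction as the receptor gene beside them. Promoter stretches are shown for both receptor genes and for the flanking gene measured most firmly at each locus. Each runs from 250 bases before to 50 bases after the start, as RefSeq gives it on GRCm38.p6, with GC boxes (GGGCGG on either strand) in capitals. Drd1 is chr13:54055609-54055908 on the minus strand (of 2 listed starts, the one nearer to the annotated start), Sfxn1 is chr13:54071595-54071894 on the plus strand, Drd2 is chr9:49340153-49340452 on the plus strand and Ttc12 is chr9:49486176-49486475 on the minus strand.
Drd1: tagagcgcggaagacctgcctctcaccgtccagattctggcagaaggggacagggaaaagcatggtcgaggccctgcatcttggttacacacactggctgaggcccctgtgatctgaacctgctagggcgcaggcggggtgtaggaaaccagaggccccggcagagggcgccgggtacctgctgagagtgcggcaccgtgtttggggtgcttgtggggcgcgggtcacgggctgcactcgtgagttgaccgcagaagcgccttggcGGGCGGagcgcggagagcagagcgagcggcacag
Sfxn1: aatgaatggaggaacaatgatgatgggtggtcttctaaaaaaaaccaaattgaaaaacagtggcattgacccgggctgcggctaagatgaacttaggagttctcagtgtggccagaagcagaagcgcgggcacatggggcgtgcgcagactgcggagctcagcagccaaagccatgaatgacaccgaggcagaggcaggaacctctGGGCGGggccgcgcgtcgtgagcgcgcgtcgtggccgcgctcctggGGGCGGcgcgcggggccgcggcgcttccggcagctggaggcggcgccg
Drd2: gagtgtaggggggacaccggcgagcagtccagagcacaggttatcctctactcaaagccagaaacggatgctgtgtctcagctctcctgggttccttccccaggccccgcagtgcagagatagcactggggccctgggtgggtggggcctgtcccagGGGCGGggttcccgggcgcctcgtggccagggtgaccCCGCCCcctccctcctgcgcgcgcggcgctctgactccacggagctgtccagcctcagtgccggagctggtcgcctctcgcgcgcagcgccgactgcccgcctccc
Ttc12: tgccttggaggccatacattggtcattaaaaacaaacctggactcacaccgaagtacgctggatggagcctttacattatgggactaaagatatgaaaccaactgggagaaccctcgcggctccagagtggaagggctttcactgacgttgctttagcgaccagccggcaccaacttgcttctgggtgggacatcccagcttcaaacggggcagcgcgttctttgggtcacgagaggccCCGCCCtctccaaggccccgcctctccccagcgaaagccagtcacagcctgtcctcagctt
Each of the 4 held at least 1 GC box, as did 35.7% of the 32851 promoters listed. The 4 were also richer in G and C (Drd1 65.7%, Sfxn1 63.3%, Drd2 70.3%, Ttc12 56.3%) than the median promoter (52.7%). None held TATAAA (13.6% of promoters), the cAMP response element TGACGTCA (1.79%) or the E box CACGTG (7.15%), read on both strands. A match describes these letters only.

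Drd2 itself was lowest at 32.8, median 84.0 and highest at 200 CPM in D1_SC, against 386, 789 and 2805 CPM in D2_SC. No D1_SC library reached the lowest D2_SC library. The difference was -3.66 ± 0.58 on the log2 scale (D1_SC minus D2_SC ± SE, edgeR quasi-likelihood test over all 75 libraries, adjusted p = 8.06e-05), and without the 7 failing libraries it was -4.40 (adjusted p = 0.00244). Within D2_SC the level was uneven. Libraries 3, 4 and 7 held 2805, 2237 and 2273 CPM, while the other 6 held 386 to 845 CPM. The same 3 libraries had background shares of 8.80%, 10.7% and 10.4%, against 25.0% to 52.5% in the other 6, and the part of background in the level was not tested. In nuclei of a whole sort, fewer cells of a class and less RNA per cell cannot be told apart.

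Ankk1, a kinase gene on the opposite strand, has its nearest end 7.02 kb beyond the end of Drd2. It was lowest at 0, median 7.34 and highest at 13.3 CPM in D1_SC, against 13.6, 53.3 and 76.0 CPM in D2_SC (log2 -2.59 ± 0.40, edgeR adjusted p = 4.62e-05). Ttc12, which encodes a tetratricopeptide repeat protein and lies 28.8 kb from Drd2, was lowest at 4.61, median 11.9 and highest at 42.2 CPM in D1_SC, against 45.3, 118 and 177 CPM in D2_SC (log2 -2.41 ± 0.32, edgeR adjusted p = 1.87e-06). Both sets of values are separate by a narrow margin at their ends, 13.3 against 13.6 CPM and 42.2 against 45.3 CPM. Unlike Drd2, Ttc12 was low in D2_SC 3, 4 and 7 (47.5 to 49.5 CPM) among the D2_SC libraries, with D2_SC 1 at 45.3 CPM. On the other side of Drd2, Gm4894, 60.0 kb away, was also lower in D1_SC (log2 -1.65 ± 0.36, edgeR adjusted p = 0.00621), with D1_SC at 0 to 24.2 CPM and D2_SC at 5.39 to 40.0 CPM, which overlap. The cell adhesion gene Ncam1, 94.0 kb away, had a difference of 0.23 and did not pass (edgeR adjusted p = 0.874). Within 200 kb of Drd2, 3 of 5 tested genes passed, all lower in D1_SC, with a median of -1.65 against -0.0058 over all genes tested. Between 200 and 500 kb, 0 of 8 passed by edgeR (2 at an unadjusted p of 0.05 or less) and 0 by DESeq2. Limma with library weights, which called 30.1% of all genes, called 2.

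At the other locus Drd1 spread widely in its own line. It was lowest at 16.9, median 61.3 and highest at 219 CPM in D1_SC, against 10.5, 17.5 and 66.4 CPM in D2_SC. The groups overlap, and 7 of the 9 D1_SC libraries lie above the D2_SC mean. The difference of 1.84 ± 0.52 just missed the threshold (edgeR adjusted p = 0.0527). It passed by DESeq2 (1.62, adjusted p = 0.027) and by limma with library weights (2.64, adjusted p = 0.000286). Leaving out D2_SC 1, the D2_SC library with the highest Drd1, gave 2.23 and an adjusted p of 0.0197, and leaving out D1_SC 3 or D1_SC 6 also brought it past the threshold (0.0477 and 0.0241). Without the 7 failing libraries the value was 2.37 with an adjusted p of 0.548.

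Sfxn1, a mitochondrial serine carrier gene that starts 16.2 kb from Drd1, separated the groups better than Drd1. It was lowest at 67.8, median 107 and highest at 131 CPM in D1_SC, against 11.8, 25.4 and 30.2 CPM in D2_SC. Every D1_SC library stood at more than the highest D2_SC level, with a log2 difference of 2.46 ± 0.33 (edgeR adjusted p = 1.87e-06) that was 2.11 without the failing libraries. On the far side of Drd1, 2 unnamed transcripts were higher in D1_SC as well, Gm34557 (116 kb away, log2 1.62 ± 0.32, edgeR adjusted p = 0.00176) and the pseudogene Gm18974 (160 kb away, 1.78 ± 0.33, adjusted p = 0.00099). E130119H09Rik, between these transcripts (log2 1.00, edgeR adjusted p = 0.131), and Gm48550, nearer to Drd1 (0.73, adjusted p = 0.424), did not pass with all libraries. Without the failing libraries both passed, at 1.50 (edgeR adjusted p = 0.0392) and 1.46 (0.000371), and so they did by limma with library weights. E130119H09Rik also passed without D2_SC 1 (1.30, edgeR adjusted p = 0.0235) and with the background share as a covariate (1.20, 0.0261). The histamine receptor gene Hrh2, 136 kb from Drd1 in the direction of Sfxn1, had a difference of 0.11 and did not pass (edgeR adjusted p = 0.941).

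Counted together, 3 of 8 tested genes within 200 kb of Drd1 passed with all libraries and 5 of 8 without the failing ones, all higher in D1_SC, with a median of 0.92 (1.48 without the failing libraries). Between 200 and 500 kb, 0 of 11 passed by edgeR (0 at an unadjusted p of 0.05 or less), 0 by DESeq2 and 6 by limma with library weights, 4 of them higher in D1_SC. For comparison, 0.762% of all genes tested passed as higher in D1_SC and 0.408% as lower by edgeR, and limma with library weights called 30.1% of all genes. The labels name both Cre lines without saying how the transgenes were built or how much flanking DNA they carry, and whether transgenic DNA adds to the counts at these loci was not tested.

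**Figure D1:**
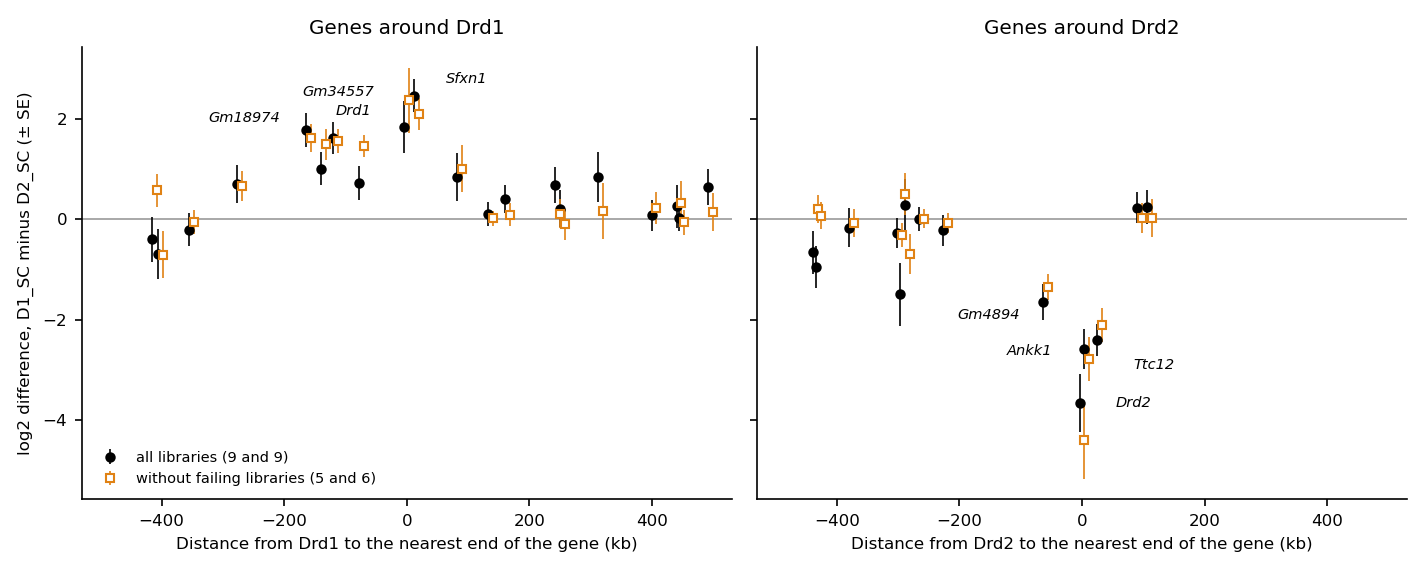
Log2 difference between D1_SC and D2_SC (y axis, ± SE from the edgeR fit) for tested genes by the distance of their nearest end from Drd1 (left) or Drd2 (right) in kb, with all 9 and 9 libraries as filled circles and the 5 and 6 libraries that passed the quality rule as open squares. Values depart from 0 around each receptor gene, upward at Drd1 and downward at Drd2, and no gene shown beyond 200 kb passed by edgeR.

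In CPM, Drd2 exceeded Drd1 in 6 of 9 D1_SC libraries and in 9 of 9 D2_SC libraries. Per kilobase of gene span, introns included, Drd1 exceeded Drd2 in 9 of 9 D1_SC libraries and in 2 of 9 D2_SC libraries (numbers 1 and 5). Drd1 spans 4.52 kb and Drd2 67.6 kb, so the order of the 2 genes within a library depends on the scale. Drd1 ran from 3.73 to 48.5 CPM per kb in D1_SC and from 2.32 to 14.7 in D2_SC, and Drd2 ran from 0.485 to 2.95 CPM per kb in D1_SC and from 5.71 to 41.5 in D2_SC.

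Among D2 class markers away from the receptor, the adenosine receptor gene Adora2a was lowest at 3.07, median 18.3 and highest at 42.7 CPM in D1_SC, against 35.6, 97.5 and 148 CPM in D2_SC. All 9 D1_SC libraries lay below the D2_SC mean, although the ranges overlap, with D1_SC 3, 7 and 9 above the lowest D2_SC library. The difference was -1.94 ± 0.48 (edgeR adjusted p = 0.0203). It kept its size without the failing libraries at -1.96 but did not pass (adjusted p = 1), and it missed the threshold without D1_SC 5 (0.0608) or D2_SC 3 (0.0527).

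Penk, the enkephalin precursor, was lowest at 33.7, median 86.5 and highest at 383 CPM in D1_SC, against 159, 271 and 749 CPM in D2_SC. D1_SC 7 and D1_SC 8, at 383 and 226 CPM, lay within the D2_SC range, and the difference of -1.54 ± 0.59 did not pass (edgeR adjusted p = 0.258). Sp9, a transcription factor needed for striatopallidal neurons, was lower in D1_SC (-1.38 ± 0.38, edgeR adjusted p = 0.0434), a call that was lost on leaving out any 1 of 10 libraries (adjusted p = 0.0511 to 0.176: D1_SC 2, 5, 6, 7, 8 and 9 and D2_SC 1, 3, 4 and 7). The purine receptor gene P2ry1 (-1.51, adjusted p = 0.114) and the kainate receptor gene Grik3 (-0.84, adjusted p = 0.161) had values below 0 and did not pass by edgeR. Gpr6 went against its list at 0.81, with 213 CPM in D1_SC 5 and a D1_SC median of 4.16 CPM. Without D1_SC 5 its value was -1.31 (edgeR adjusted p = 0.536).

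Of 10 D2 class markers 9 were tested, 8 had values below 0 and 3 passed by edgeR, where 0.408% of all genes passed as lower in D1_SC, with a median of -1.38. DESeq2 called 4 of them, P2ry1 included (of all genes 1.28%), and limma with library weights 5 (30.1%). The median was -1.30 without the failing libraries, where Drd2 and Upb1, a pyrimidine-degrading enzyme gene, passed (Upb1 -0.91, edgeR adjusted p = 0.0287, against -0.71 and 0.279 with all libraries).

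Among D1 class markers, Pdyn was lowest at 10.7, median 61.1 and highest at 222 CPM in D1_SC, against 6.36, 27.6 and 43.4 CPM in D2_SC. Here 7 of 9 D1_SC libraries lay above the D2_SC mean and 2 failing ones, D1_SC 1 and 5, lay below it. The difference of 2.01 ± 0.51 passed (edgeR adjusted p = 0.0256), but not without D1_SC 8 (1.69, adjusted p = 0.0709) and not without the failing libraries (2.57, adjusted p = 0.163).

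Tac1 was lowest at 20.0, median 46.1 and highest at 245 CPM in D1_SC, against 16.2, 31.3 and 46.9 CPM in D2_SC. Only D1_SC 3, 4, 7 and 8 stood above the highest D2_SC library, and the difference of 1.57 ± 0.51 did not pass (edgeR adjusted p = 0.123). Isl1, a transcription factor of the D1 class, had a difference of 1.66 ± 0.47 (edgeR adjusted p = 0.0562) that was 0.90 without D1_SC 5, where it reached 96.7 CPM. Isl1 passed without D2_SC 1 (2.17, edgeR adjusted p = 0.0066) and without any 1 of D1_SC 1, 3, 6, 7 and 9 (0.0205 to 0.0417). The muscarinic receptor gene Chrm4 (1.24, adjusted p = 0.395) and Slc35d3, a sugar transporter-like gene (1.66, adjusted p = 0.12), did not pass either.

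All 12 D1 class markers were tested, all 12 had values above 0 and 2 passed by edgeR (Sfxn1 and Pdyn), where 0.762% of all genes passed as higher in D1_SC. Sfxn1 was also counted above among the genes beside Drd1, so these counts overlap. DESeq2, which called 1.28% of all genes, called 4 of the 12 markers (also Drd1 and Isl1). Limma with library weights, which called 30.1% of all genes, called 8. The median was 1.40, and 1.67 without the failing libraries. D1_SC 7 and 8 held the highest Drd1, Tac1 and Pdyn, and D1_SC 5 and 6 were among the lowest for all 3 genes. Medium spiny neuron markers common to both classes, such as the phosphatase inhibitor gene Ppp1r1b (log2 0.35, edgeR adjusted p = 0.884), passed in 0 of 15 cases by edgeR (0 at an unadjusted p of 0.05 or less), 0 by DESeq2 and 10 by limma with library weights, with a median of 0.20.

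**Figure D2:**
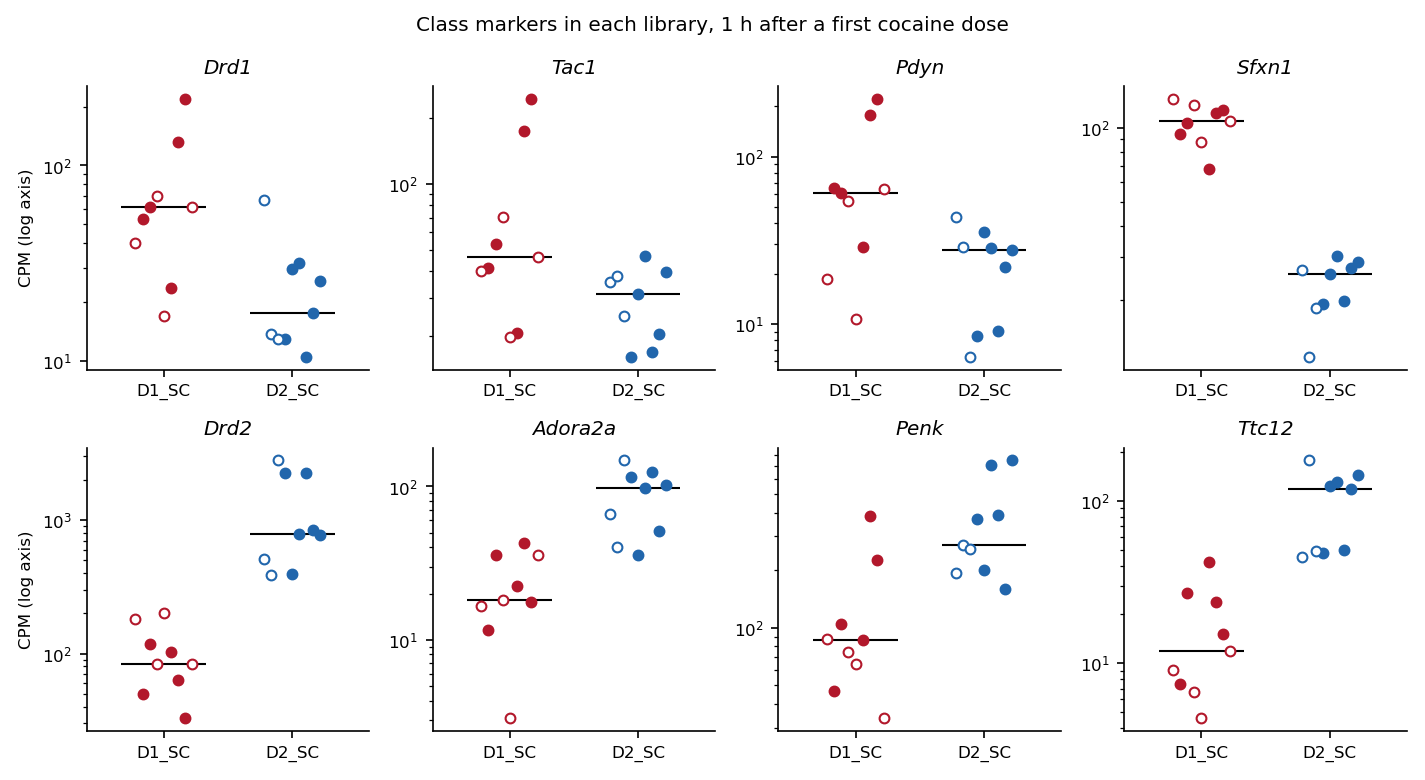
CPM (log axis) of 8 class marker and flanking genes in each library, D1_SC left of D2_SC, with filled points for libraries that passed the quality rule, open points for those that failed it, and bars at the group median. Sfxn1, Drd2 and Ttc12 separate the 9 and 9 libraries, while Drd1, Tac1, Pdyn, Adora2a and Penk overlap.

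Over the whole transcriptome 459 of 39250 genes passed (1.17%), 299 higher in D1_SC and 160 lower. Of the 299, 176 genes (58.9%) had their highest D1_SC value in D1_SC 5, the shallowest library, against 8.16% of all genes tested. Without D1_SC 5 the count was 191, and without D1_SC 6 it was 771. It was 267 without D2_SC 2. DESeq2 called 503 genes (1.28%), of which 280 were among the 459. Limma with library weights called 11819 (30.1%), 7229 of them higher in D1_SC (18.4%). Only 143 of the 459 were among the genes that limma called. Without the 7 failing libraries 18 genes passed (0.0442% of 40683), 11 higher in D1_SC (0.027%) and 7 lower (0.0172%), and 11 of the 18 were among the 459. In that reduced set the median of the 299 genes was 0.14, against 1.94 with all libraries, and the median of the 160 was -0.23, against -2.12. These genes had been chosen by the larger fit, so their values there carry no test.

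**Figure D3:**
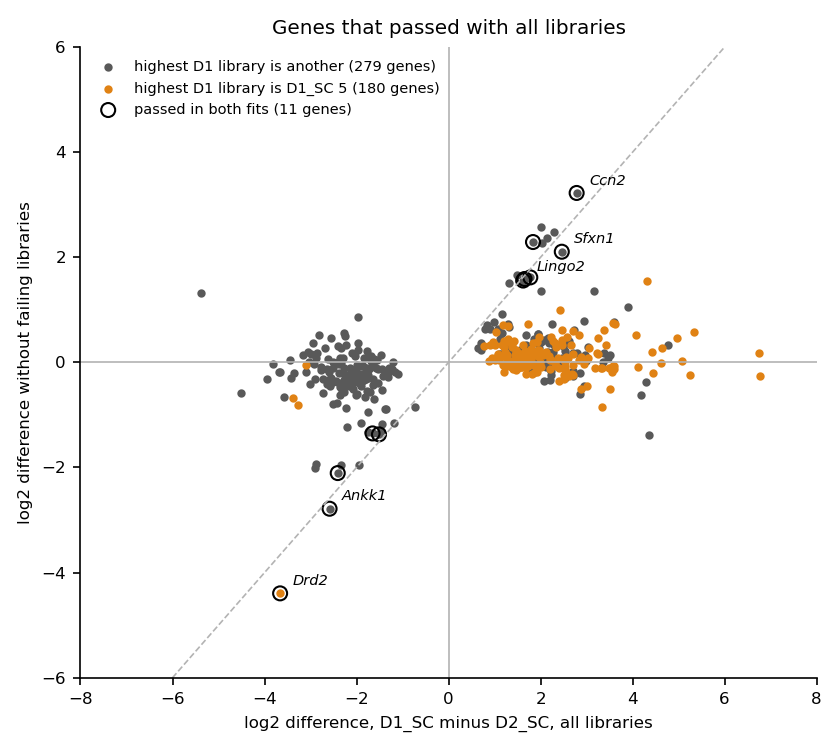
Log2 difference between D1_SC and D2_SC with all libraries (x axis) and without the 7 failing libraries (y axis) for the 459 genes that passed with all libraries, in orange where D1_SC 5 was the highest D1_SC library and circled where the gene passed in both. Most points lie near 0 on the y axis, with 11 circled genes near the dashed line of equal values.

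The genes of largest fold were taken among passing genes whose log2 CPM averaged at least 1, and several of them stood high in 1 library. Predicted genes, clones and olfactory receptors were left out by name, and 22 of them had larger differences than the last gene named as higher and 35 than the last named as lower. Guca2b, the uroguanylin peptide gene, had 388 CPM in D1_SC 5 and a D1_SC median of 1.26 CPM, against a D2_SC median of 0.816 CPM, and its difference of 5.25 ± 0.88 (edgeR adjusted p = 0.000185) became -0.25 without D1_SC 5. Hdhd5 had 1062 CPM in D1_SC 5 and 19.7 to 36.6 CPM in the other D1_SC libraries, and its 2.88 became 0.40 without that library. Likewise the linker histone gene Hist1h1a went with D1_SC 5 (109 CPM, log2 4.32, and 1.42 without it) and the protease gene Prss29 with D1_SC 1 (91.1 CPM, log2 3.39, and 0.060 without it), and neither passed without that library (edgeR adjusted p = 0.468 and 0.991). Rbm3os, BC055402, Art4, Morn5, Uroc1, Tbx3os2, Lgals1 and Efna1 completed the 12 largest positive values under that rule, and their values without the failing libraries were -0.13 to 0.79.

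On the negative side, beyond the Drd2 locus and Adora2a, single D2_SC libraries stood high. Olig1, a transcription factor of the oligodendrocyte lineage, was at 87.5 and 67.1 CPM in D2_SC 1 and 2 and at 6.27 CPM or less elsewhere in both groups. Its difference of -3.06 (edgeR adjusted p = 0.022) was lost without D2_SC 1 (adjusted p = 0.25) or without D2_SC 2 (0.111), and it was 0.20 without the failing libraries. Cib2, a calcium-binding protein gene, reached 202 CPM in D2_SC 2, and its difference of -2.02 was -0.33 without that library. The vitamin D hydroxylase gene Cyp2r1 (-2.02, edgeR adjusted p = 0.000962) was at 27.9 and 48.0 CPM in D2_SC 1 and 2 and at 5.30 CPM or less elsewhere. B3gnt5, Ssxa1, AY702103, Slc25a34 and Sdr16c5 completed the 12 largest negative values under that rule, at -0.27 to 0.38 without the failing libraries.

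Outside the receptor loci, 3 genes passed both with all libraries and without the failing ones as higher in D1_SC, and Cetn1 did so as lower. They were named after their values were seen. Lingo2, a neuronal leucine-rich repeat membrane protein gene, was lowest at 725, median 1391 and highest at 2111 CPM in D1_SC, against 227, 556 and 1066 CPM in D2_SC. All 9 D1_SC libraries lay above the D2_SC mean, though D1_SC 1 and 7 lay below the highest D2_SC library. The difference was 1.65 ± 0.26 (edgeR adjusted p = 8.06e-05) and 1.59 without the failing libraries (adjusted p = 0.00103). Its lowest D2_SC levels, 227 to 303 CPM, were in libraries 3, 4 and 7, those with the highest Drd2.

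The connective tissue growth factor gene Ccn2 was at 4.04, 17.7 and 11.9 CPM in D1_SC 6, 7 and 8, and at 0.677 CPM or less in the other 6 D1_SC libraries, against 0 to 1.55 CPM in D2_SC. The difference of 2.78 ± 0.50 (edgeR adjusted p = 0.000519; 3.22 without the failing libraries) thus rested on those 3 libraries. D1_SC 7 also held the highest level of the vesicular glutamate transporter gene Slc17a7, 129 CPM against a D1_SC median of 12.5 CPM and 0.749 to 17.5 CPM in D2_SC, and the largest sum over 9 markers of glutamatergic neurons (309 CPM). The part of such cells in the Ccn2 result was not tested.

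The somatostatin receptor gene Sstr4 had 0 to 10.9 CPM in D1_SC (median 3.12), against 0.187 to 5.88 CPM in D2_SC (median 1.59), a difference of 1.84 ± 0.49 (edgeR adjusted p = 0.0384). It was 2.29 without the failing libraries (edgeR adjusted p = 0.0273), but it no longer passed on leaving out any 1 of 11 libraries (D1_SC 2, 7, 8 and 9 and D2_SC 3, 4, 5, 6, 7, 8 and 9; adjusted p = 0.0509 to 0.0737). Cetn1, a centrin gene, did not exceed 0.934 CPM in D1_SC or 2.36 CPM in D2_SC, and its difference of -1.51 (edgeR adjusted p = 0.0204) was lost without D2_SC 5 (0.0526).

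A few neurotransmitter receptor genes also passed with all libraries. The delta opioid receptor gene Oprd1, whose ligands include the enkephalins made from Penk, was lowest at 2.21, median 13.1 and highest at 21.8 CPM in D1_SC, against 10.6, 34.6 and 45.2 CPM in D2_SC. All 9 D1_SC libraries were below the D2_SC mean, and D2_SC 1 was the only D2_SC library within the D1_SC range. The difference was -1.19 ± 0.26 (edgeR adjusted p = 0.00511) and -1.16 without the failing libraries (adjusted p = 0.0844). The dopamine receptor gene Drd3 was at 56.6 to 150 CPM in D1_SC and 47.1 to 116 CPM in D2_SC, with a difference of 1.03 ± 0.25 (edgeR adjusted p = 0.0182) that was 0.58 without the failing libraries (adjusted p = 1) and did not pass without D1_SC 4 (0.0558) or 5 (0.0588). The serotonin receptor gene Htr1f differed by 0.82 ± 0.21 (edgeR adjusted p = 0.025) and no longer passed on leaving out any 1 of D1_SC 2, D1_SC 9, D2_SC 2 and D2_SC 9 (0.0525 to 0.109).

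In their lists these made up, where 1.17% of all genes passed, 1 of 30 dopamine and cAMP signalling genes (Drd3, higher; median 0.071) and 2 of 21 opioid, cannabinoid, muscarinic, serotonin and tachykinin receptor genes (Htr1f higher and Oprd1 lower; median 0.20). Outside the loci, 5 further genes passed by edgeR without the failing libraries and not with all libraries, and they too were named after their values were seen. They were the matricellular gene Ccn1 (log2 1.24, edgeR adjusted p = 0.0337), the thrombomodulin gene Thbd (1.26, 0.0493), the neurotrophic factor receptor gene Gfra1 (0.82, 0.0494), the adenosine kinase gene Adk (-0.89, 0.0356) and Upb1. With all libraries their differences were 0.46, 0.77, 0.67, -0.84 and -0.71. By edgeR Gfra1 also passed without D1_SC 5 (0.0154), Adk without D1_SC 6 (0.0353) and Upb1 without D1_SC 1 (0.0358). All 5 passed by limma with library weights, which called 30.1% of all genes.

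Of the rapid response genes that mark neuronal activity, none passed between the classes by edgeR 1 h after cocaine. Fos was lowest at 0, median 3.16 and highest at 20.2 CPM in D1_SC, against 3.59, 5.28 and 9.31 CPM in D2_SC, a difference of -0.063 ± 0.47 (edgeR adjusted p = 0.991). Fos was at 0 in D1_SC 5 and in D1_SC 9. In D1_SC 5 as few as 3 counts would equal 4.61 CPM, so that a level like that of D2_SC was hardly detectable there. In D1_SC 9, by contrast, 3 counts would equal 0.829 CPM, below the lowest D2_SC level of 3.59 CPM. Arc, a synaptic activity-regulated gene, was lowest at 0, median 8.14 and highest at 75.2 CPM in D1_SC, against 6.37, 10.2 and 23.5 CPM in D2_SC (0.52 ± 0.48, edgeR adjusted p = 0.805). The transcription factor genes Egr1 (-0.17), Npas4 (0.38), Nr4a1 (0.73) and Nr4a3 (0.48) did not pass either (edgeR adjusted p = 0.963, 0.821, 0.578 and 0.717).

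D1_SC 7 held the highest Fos, Arc, Egr1 and Npas4 of all 18 libraries, and D1_SC 5 the lowest Arc, Egr1 and Npas4. Over the list, 0 of 24 rapid genes passed by edgeR (3 at an unadjusted p of 0.05 or less) and 0 by DESeq2, while limma with library weights called 18, 17 of them higher in D1_SC, where it called 30.1% of all genes. With edgeR 19 had values above 0, and the median was 0.38 (0.67 without the failing libraries), beside -0.0058 over all genes tested. Summed over the list, the level was 141 to 795 CPM in D1_SC and 220 to 517 CPM in D2_SC, so that the D2_SC range lies inside the D1_SC range. A p that misses the threshold does not show equal levels, and for Fos the standard error of 0.47 leaves room for a sizeable difference in either direction.

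Other gene groups of this tissue gave 0 calls by edgeR, with 0 to 6 members of each at an unadjusted p of 0.05 or less. By DESeq2, 2 axon guidance and adhesion genes, 1 potassium channel gene and 1 sodium or calcium channel gene passed, and limma with library weights, which called 30.1% of all genes, called 72 of 83 ribosomal protein genes (71 higher in D1_SC), 64 of 93 respiratory chain genes (64 higher) and 7 to 24 members of each other group. These groups were 23 delayed activity-regulated genes (median 0.24), 13 MAP kinase feedback regulators (0.11), 17 core clock genes (0.094), 21 glutamate receptor genes (0.22), 22 sodium and calcium channel genes (0.21) and 42 histone and DNA modifying enzymes (0.25). All 14 GABA receptor genes had values above 0 (median 0.28), as did 29 of 33 potassium channel genes (0.24) and 42 of 52 axon guidance and adhesion genes (0.23), and without the failing libraries these medians were 0.063, 0.089 and -0.021. Ribosomal protein genes (83, median 0.29) and respiratory chain genes (93, median 0.25) had larger medians without the failing libraries, 0.86 and 0.42. Their summed levels were highest in D1_SC 7, at 3456 and 3338 CPM, against D1_SC medians of 638 and 1388 CPM and D2_SC medians of 910 and 1570 CPM.

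Markers of cell types other than medium spiny neurons were present in both groups. The sums over 10 astrocyte markers were 118 to 881 CPM in D1_SC and 113 to 947 CPM in D2_SC. Over 10 oligodendrocyte markers they were 123 to 930 CPM in D1_SC and 116 to 1176 CPM in D2_SC, with the highest values in D1_SC 5 and D2_SC 1. Microglia and vessel markers summed to 118 to 357 CPM in D1_SC and 85.4 to 391 CPM in D2_SC, and striatal interneuron markers to 100 to 530 CPM in D1_SC and 66.3 to 340 CPM in D2_SC. The ranges overlap for every one of these lists. Olig1 alone among the markers of other cell types passed by edgeR, as 1 of 6 oligodendrocyte precursor markers, which summed to 37.1 to 137 CPM in D1_SC and 15.5 to 168 CPM in D2_SC. Choroid plexus markers summed to 51.4 to 132 CPM in D1_SC and 48.7 to 128 CPM in D2_SC. Glutamatergic neuron markers summed to 33.1 to 309 CPM in D1_SC and 24.9 to 204 CPM in D2_SC, and Slc17a7 differed by 1.61 ± 0.46 (edgeR adjusted p = 0.0598), 0.76 without D1_SC 7. Slc17a7 passed without any 1 of D1_SC 2, 4, 6 and 9 (0.0159 to 0.047).

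**Figure D4:**
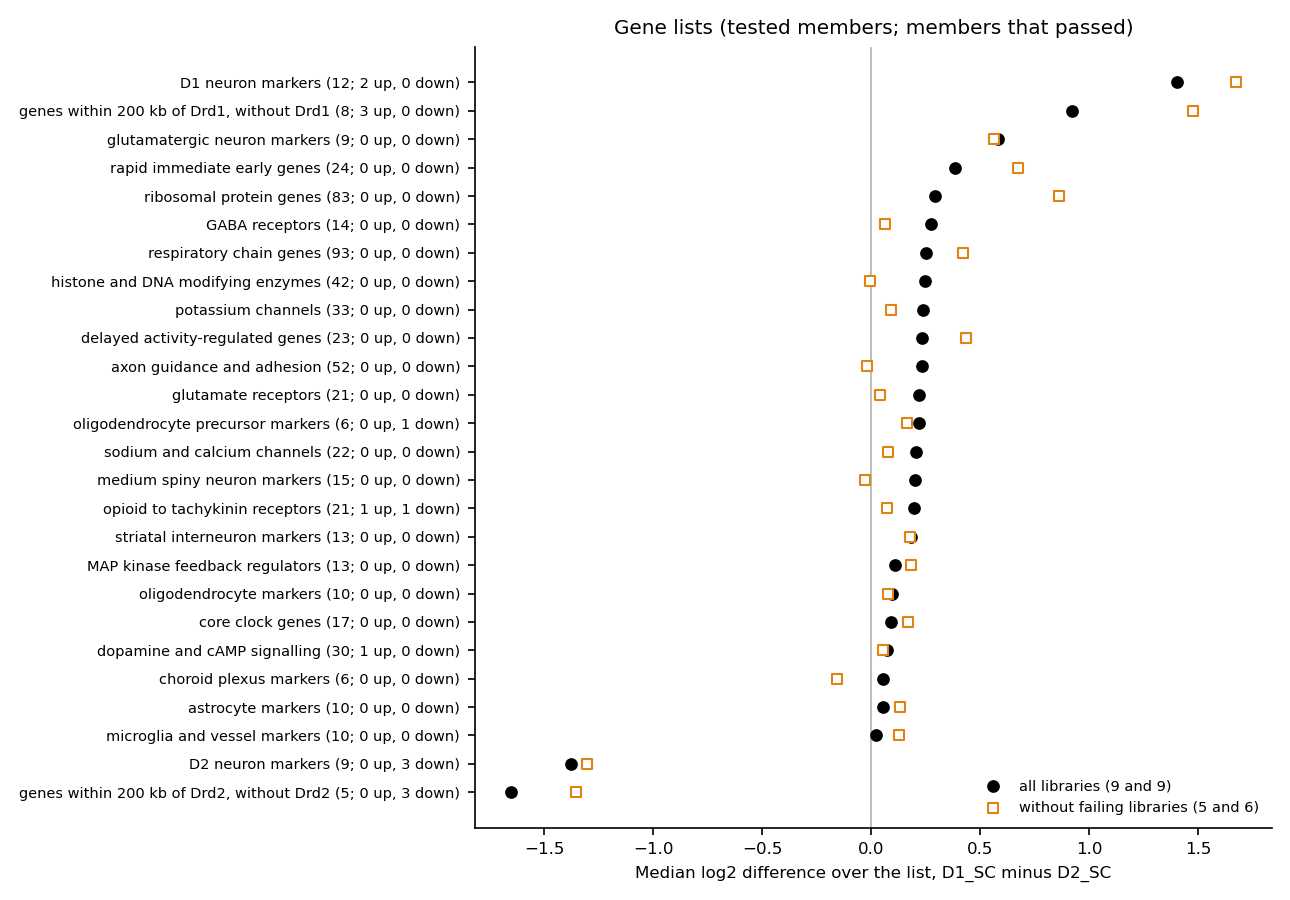
Median log2 difference between D1_SC and D2_SC over the tested members of each gene list, with all libraries (filled) and without the 7 failing libraries (open squares), and in parentheses the members tested and those that passed with all libraries. Only the lists of class markers and of genes beside the receptors lie away from 0 by more than 0.9 on the log2 scale.

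The same class difference was measured in 3 other treatments of other mice, fitted together with the one described. These were repeated saline with a saline challenge (SS, 10 D1 and 9 D2 libraries), repeated cocaine with a saline challenge (CS, 8 and 10) and repeated cocaine with a cocaine challenge (CC, 10 and 10). In SS 10 genes passed (0.0255%), in CS 1410 (3.59%), of which 1392 (3.55%) were lower in D1 nuclei, and in CC 8 (0.0204%), each by edgeR. Without the failing libraries the counts were 9 (0.0221%), 13 (0.032%) and 6 (0.0147%). The failing libraries include D2_CS 6, D2_CS 9 and D2_CC 10, whose totals were only 26297, 19980 and 19825 counts.

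In CC and CS some libraries labelled D1 went against that label in Drd2. The libraries labelled D1_CC 4, 7, 9 and 10 held 718, 380, 576 and 363 CPM of Drd2, against 38.8 to 60.3 CPM in the other 6 D1_CC libraries and 398 to 2104 CPM in D2_CC. The library labelled D1_CS 4 held 465 CPM, against at most 101 CPM in the other 7 D1_CS libraries and 220 to 1184 CPM in D2_CS. None of these 5 failed the quality rule, and no D1_SC or D1_SS library reached the lowest D2 library of the series in Drd2. Directions drawn from CC and CS below rest on these labels. Because the 5 were picked by Drd2 after its values were seen, values without them are given as a description, with no test.

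Drd2 was lower in D1 nuclei at -4.35 ± 0.57 in SS (edgeR adjusted p = 2.27e-06) and -2.73 ± 0.58 in CS (0.00232), with -2.19 ± 0.52 in CC (0.158). Without the 5 libraries it was -3.47 in CS and -4.10 in CC. Ankk1 passed in all 3, at -2.55, -1.43 and -1.77 (edgeR adjusted p = 4.78e-05, 0.0266 and 0.034), and was at -1.91 in CS and -2.94 in CC without the 5 libraries. Sfxn1 was at 1.65 in SS (edgeR adjusted p = 0.00599), 0.96 in CS (0.0803) and 1.94 in CC (0.00059), with 0.96 in CS and 2.40 in CC without the 5 libraries. Gm34557 was at 1.70, 1.59 and 1.39 in SS, CS and CC, beside 1.62 in SC, with 1.59 in CS and 1.77 in CC without the 5 libraries. These 4 genes thus had the same direction in all 4 treatments.

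The peptide and receptor markers varied more. Pdyn was at 2.02 in SS (edgeR adjusted p = 0.333), 0.049 in CS (0.972) and 3.27 in CC (0.00059), Drd1 at 1.84, 0.26 and 2.98 (1, 0.81 and 0.00325), and Tac1 at 1.26, -0.40 and 2.70 (1, 0.678 and 0.00579). Adora2a was at -2.56 in SS (edgeR adjusted p = 0.00411), -2.90 in CS (0.000283) and -0.52 in CC (0.824), and Penk at -1.88 (1), -2.41 (0.0164) and 0.017 (1). Without the 5 libraries, the CS and CC values were -3.17 and -1.14 for Adora2a, -2.73 and -0.36 for Penk, 0.070 and 3.83 for Pdyn, 0.29 and 3.50 for Drd1, and -0.36 and 3.18 for Tac1. Lingo2 was at 0.90, 0.28 and 0.56 in SS, CS and CC and passed in none of the 3 (edgeR adjusted p = 1, 0.559 and 0.312). Ccn2 was at -0.26, 0.069 and 0.57 there, and Sstr4 at 1.44, 1.03 and 2.17, the last of which passed (edgeR adjusted p = 0.0408). Without the 5 libraries, the CS and CC values were 0.29 and 0.75 for Lingo2, 0.076 and 0.43 for Ccn2, and 1.11 and 2.60 for Sstr4.

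**Figure D5:**
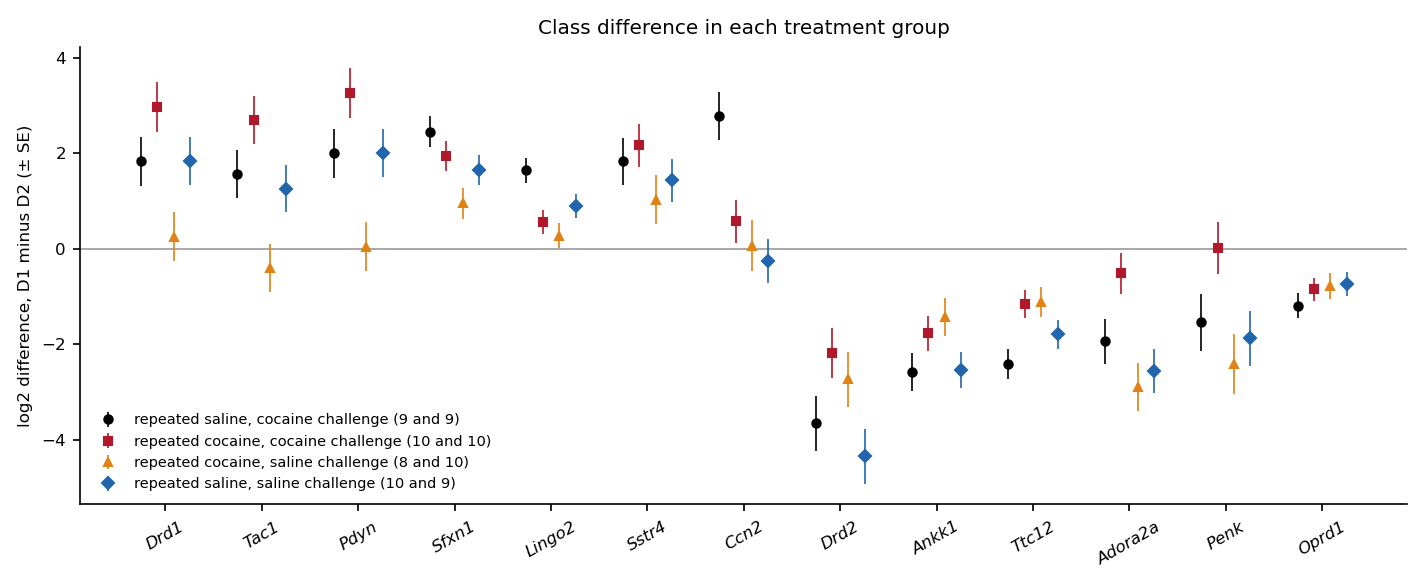
Log2 difference of D1 minus D2 nuclei (± SE, edgeR) for 13 genes in each treatment, with the numbers of D1 and D2 libraries in the legend. Sfxn1, Lingo2 and Sstr4 lie above 0 and Drd2, Ankk1, Ttc12 and Oprd1 below 0 in all 4 treatments, while Ccn2 stands at 2.78 after first cocaine and at -0.26 to 0.57 elsewhere.

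Whether the class difference after the first cocaine dose differed from that in SS was tested as the difference of the 2 differences. By edgeR 11 genes passed (0.028%), all higher, and 0 lower, with 2027 genes at an unadjusted p of 0.05 or less. Of these 11, 8 had their highest D1_SC value in D1_SC 5 and 3 in D1_SC 1, and without D1_SC 5 the count was 0. It was 30 to 35 without any 1 of D1_SC 2, 3, 4, 6, 7, 8 and 9, and 3 to 6 without any 1 of D2_SC 1, 2, 3, 5, 6, 7, 8 and 9. It was also 0 without the failing libraries (582 genes at an unadjusted p of 0.05 or less) and by DESeq2 (1893). Limma with library weights called 16 genes, 8 higher and 8 lower, which shared 0 with the 11. Ccn2 came to 3.04 ± 0.67 (edgeR adjusted p = 0.0662). Lingo2 came to 0.75 ± 0.36 (adjusted p = 0.935), Sfxn1 to 0.81 ± 0.44 (0.967), Drd2 to 0.69 ± 0.73 (0.967), Pdyn to -0.011 ± 0.68 (1) and Drd1 to -0.0059 ± 0.70 (1). None of these values passed, and a difference between SC and SS in them was not detectable with 9 and 9 libraries against 10 and 9.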

How the data were processed

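Nuclear RNA of sorted nuclei was measured in 75 libraries, 9 of D1_SC and 9 of D2_SC among them. Per the labels' protocols, a microprep kit gave the RNA and a stranded low-input kit for total RNA gave the libraries. The deposited counts were whole numbers per gene, and the submitters' processing notes name mm10 as the build, with featureCounts and DESeq2 as tools. The sources used here do not give the aligner, the annotation, any version or whether counting used strand, so genes that overlap others, and near-identical copies, are uncertain. The deposited FPKM served only to read gene lengths, which equalled the gene span of GENCODE M21, introns included, within 1 base for 54271 of 54271 identifiers compared. Names and coordinates came from GENCODE M21, which held 55141 of 55401 identifiers without regard to version.

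From these counts, log2 differences were fitted in R 4.3.3 by edgeR 4.0.16 (quasi-likelihood test, two-sided; scaling by TMM; genes kept by filterByExpr within groups) in 8 groups of line and treatment, with Benjamini-Hochberg adjustment over all 39250 genes and a threshold of 0.05. SE is the size of the log2 difference divided by the root of the F statistic, and CPM divides counts by the library's summed count, times 1000000. Precision is limited by depth, from 651445 counts upwards in the 18 libraries, and counting limits cover counting error only. Some libraries of other groups in the same fit were shallower, with 19825 counts in D2_CC 10, 19980 in D2_CS 9 and 26297 in D2_CS 6. A library failed the quality rule when its total was under the line median divided by 3, or when its number of genes with 10 or more counts, or its median Spearman correlation with its line, lay over 4 scaled median absolute deviations below the median. The alternatives were the 18 libraries alone, another scaling, 2 other filters, DESeq2 1.42.0, limma 3.58.1 with library weights, library subsets, a background covariate and the replicate number as a block. A fit of CS and CC without 5 libraries labelled D1 that exceeded the lowest D2 library of the series in Drd2 was added after seeing the data. The scripts were tested on simulated counts. Genes were named by rule (the 12 largest differences in each direction among passing genes whose log2 CPM averaged at least 1, leaving out Gm, Rik, Rp, clone, olfactory, vomeronasal and mitochondrial names, up to 4 passing members of each list, class markers, Fos, Arc, Egr1 and Npas4, and genes within 200 kb of either receptor gene), and other genes named were chosen after their values were seen. Members and lists were chosen with earlier results of these data known.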

Additional observations from a re-analysis of the deposited data

Results flagged for a closer look

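Among 106 groups of 9 libraries checked, 19 had 1 library far from the other 8. The limit used flags about 1 in 20 groups of normally distributed values, a shape that CPM need not have. Some genes checked, such as Guca2b and Hdhd5, had been named for large differences that 1 library made. The 19 therefore cannot be set against that rate. D1_SC 5, the shallowest library, stood out for Isl1 (96.7 CPM), Gpr6 (213 CPM), Guca2b (388 CPM), Hdhd5 (1062 CPM) and Hist1h1a (109 CPM). D1_SC 7 stood out for Fos (20.2 CPM), Arc (75.2 CPM) and Slc17a7 (129 CPM). D1_SC 6 was far above the other D1_SC libraries for Adk (263 CPM) and D1_SC 1 for Prss29 (91.1 CPM). In the other group D2_SC 1 stood apart for Drd1 (66.4 CPM), Gm48550 (11.3 CPM), Sp9 (41.9 CPM) and Isl1 (28.7 CPM). D2_SC 2 stood apart for Sstr4 (5.88 CPM), Drd3 (116 CPM), Guca2b (9.80 CPM), Cib2 (202 CPM) and Nr4a3 (101 CPM).

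The D1 minus D2 difference in SC differed from that in SS for 11 genes by edgeR. Guca2b was among them, with a difference of 5.36 on the log2 scale (edgeR adjusted p = 0.0369), and its D1_SC 5 value is given above.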

How the results depend on the processing

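Against 459 genes that passed, 352 did with RLE scaling, 525 with no filter, 390 with a filter of 1 CPM, 503 by DESeq2 and 458 with background as a covariate. The count was 18 without the failing libraries, 4 in the 18 libraries alone, 23 in libraries with a background share under 33% (7 D1_SC and 4 D2_SC; 8.70% of them higher in D1_SC, against 65.1%), 11819 by limma with library weights and 191 to 771 when 1 library was left out. RLE scaling and DESeq2 put the median of all genes at -0.15 and -0.14, against -0.0058. For the 11 genes whose difference changed between SC and SS, the count was 0 without the failing libraries, in libraries under 33% background and by DESeq2, 1 with RLE scaling and with the filter of 1 CPM, 7 with the covariate, and 0 to 35 when 1 library was left out. This test could not be made in the 18 libraries alone. In CS, 1410 became 13 without the failing libraries and 944 without the library labelled D1_CS 4 and the 4 of D1_CC that were high in Drd2, a choice made after seeing the data. In CC, 8 became 20 without these 5, where 39756 genes were tested. Because the 5 were picked by Drd2, the counts of 944 and 20 are a description, with no test. The cause of these shifts was not tested.

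Most same-numbered libraries did not deviate together. The correlations were -0.55 to 0.71 over 9 pairs, and 2 of them were over 0.1, number 4 (0.71) and number 6 (0.67). Of the D1_SC libraries, 0 of 9 correlated best with their own number. Whether the numbers mark a batch was not tested. With the replicate number as a block the counts were 22 and 0, and Drd1 then passed, at 2.21.

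Among genes named, the sign turned for Guca2b (-0.24 without the failing libraries, -0.79 by limma, -0.74 by DESeq2, -0.25 to 5.88 when 1 library was left out), Prss29 (-0.80 by limma, -0.038 by DESeq2), Olig1 (0.20 without the failing libraries, 0.13 by limma), Cib2 (0.11 without the failing libraries) and Gpr6 (-1.30 without the failing libraries, -0.74 by limma, -0.058 with the block, -1.31 to 1.01 when 1 library was left out). Values near 0 also turned. These were Hrh2 (-0.11 with RLE scaling, -0.096 by DESeq2, -0.022 to 0.23 when 1 library was left out), Ncam1 (-0.057 with the covariate, -0.070 under 33% background), Ccn1 (-0.57 under 33%), Arc (-0.13 under 33%), Fos (0.74 without the failing libraries, 0.66 by limma, -0.48 to 0.095 when 1 library was left out) and Egr1 (0.43 without the failing libraries, 0.97 by limma, 0.033 with the block, -0.34 to 0.023 when 1 library was left out). Drd2, Ankk1, Ttc12 and Sfxn1 passed in 28 of 28 alternatives, Lingo2 in 27, Oprd1 in 25, and Pdyn and Adora2a in 23.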
